A study of Mus musculus with 10 samples.

Results

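The OKS + DsRed course followed mouse fibroblasts from day 0 to day 7 of reprogramming, and it comprised 5 of the 10 libraries of the study, those whose labels name OKS + DR at day 0, 1, 3, 5 or 7. The cells were mouse embryonic fibroblasts (MEFs) from E13.5 embryos of the cross CBA/CaJ X C57BL/6J that carry an Oct4-GFP reporter. All 5 cultures received retroviruses made in PlatE packaging cells for Oct4, Klf4 and Sox2 (OKS) and for DsRed. DsRed is a red fluorescent protein that stands in for a test factor. The methods place MEFs in medium with serum before infection and in iCD1, a chemically defined medium, after it. Whether the day 0 culture was already in iCD1 is not stated. Each day is a single library of messenger RNA from a whole culture, and no uninfected library belongs to the course, so every change is described against the OKS + DsRed library of day 0. The sources used here do not say on which hour after infection day 0 was taken, nor whether the 5 libraries came from the same infected culture. The question was which genes changed along this course without an added Fox factor, and in which order. Infection, the delivered factors, the medium and time in culture are confounded along it and cannot be told apart.

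Reprogramming turns a differentiated cell into an induced pluripotent stem cell by forcing it to express factors of the embryonic stem cell. Fibroblasts are mesenchymal cells that build collagen matrix and contractile fibres, and on the way to pluripotency they are known to lose these, to take on epithelial junctions and only later to switch on the stem cell's own genes from the genome. Interferon response genes are the antiviral and antigen presentation genes that Stat and Irf transcription factors switch on.

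The libraries held between 1208379 (day 0) and 1868566 (day 7) reads assigned to genes, so 3 reads were worth 1.61 to 2.48 CPM, a count scaled to the library total. These are shallow libraries: 4478 of the 12533 genes analysed stayed under 50 reads on every day. A read here is an expected count of RSEM, and a level is in TPM, reads scaled by transcript length and library total, given below in the order of days 0, 1, 3, 5 and 7. A gene was analysed when it reached 10 reads in at least 1 of the 5 libraries, which kept 12533 of 50600. "Rose" and "fell" are used for a difference over 1 in log2(TPM + 1), which is 2-fold for an abundant gene and more for a gene near 0. With 1 library per day such a difference has no replicate check, and the test used was that of a straight trend over the 5 days.

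The libraries of day 0 and day 3 stood apart in reads from ribosomal RNA. CT010467.1, an annotated fragment of ribosomal RNA, was at 8283, 734, 6585, 1628 and 746 TPM. Lars2, which codes for a mitochondrial leucyl-tRNA synthetase and whose annotation collects such reads, was at 888, 30.0, 607, 134 and 33.5 TPM. Both were high in the same libraries, and the part of this difference in the other results was not tested. The count of genes that rose is therefore also given below with day 1 as the reference.

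The 3 delivered factors were already expressed at day 0. Pou5f1, which codes for Oct4, was at 2560, 4168, 4569, 3720 and 3941 TPM. Sox2 was at 1814, 2342, 2698, 1952 and 2574 TPM. Klf4 was at 1329, 2290, 2964, 2168 and 2940 TPM and was the member of the 3 that rose, by 1.15 on the log2 scale at day 7. None of the 3 showed a trend over the days by edgeR's quasi-likelihood test with Benjamini-Hochberg adjustment (adjusted p of 0.69 for Pou5f1, 0.74 for Sox2 and 0.22 for Klf4). Reads from the virus and from the cell's own copy cannot be told apart in these counts, so the levels say nothing about the endogenous genes.

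The transcriptome moved most in the earliest interval and moved on at a falling rate. From day 0, 1732 genes (13.8%) had risen and 749 (5.98%) had fallen at day 1, and 2485 (19.8%) had risen and 968 (7.72%) had fallen at day 3. At day 5 the counts were 2652 (21.2%) and 1197 (9.55%), and at day 7 they were 2465 (19.7%) and 1267 (10.1%). These shares are the background against which every count of list members below is to be read. Between neighbouring libraries, 1205 genes (9.61%) rose and 647 (5.16%) fell from day 1 to 3, 881 (7.03%) rose and 754 (6.02%) fell from day 3 to 5, and 592 (4.72%) rose and 648 (5.17%) fell from day 5 to 7. The mean absolute difference per gene between neighbours decreased in the same order, from 0.64 for day 0 to 1 through 0.56 and 0.52 to 0.45 for day 5 to 7, although the latter 3 intervals are longer. Over the whole course 6637 genes passed 2-fold on no day.

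The surplus of rising genes depended on the scale and on the day 0 library. The median gene was higher than at day 0 by 0.16, 0.20, 0.20 and 0.13 on days 1, 3, 5 and 7. With each library shifted so that this median was 0, 57.3%, 59.2%, 58% and 58.3% of the genes past 2-fold were higher, against 69.8%, 72%, 68.9% and 66.1% without the shift. With day 1 as the reference, 1205 genes had risen and 647 had fallen at day 3, 1639 and 1184 at day 5, and 1644 and 1413 at day 7.

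**Figure D1:**
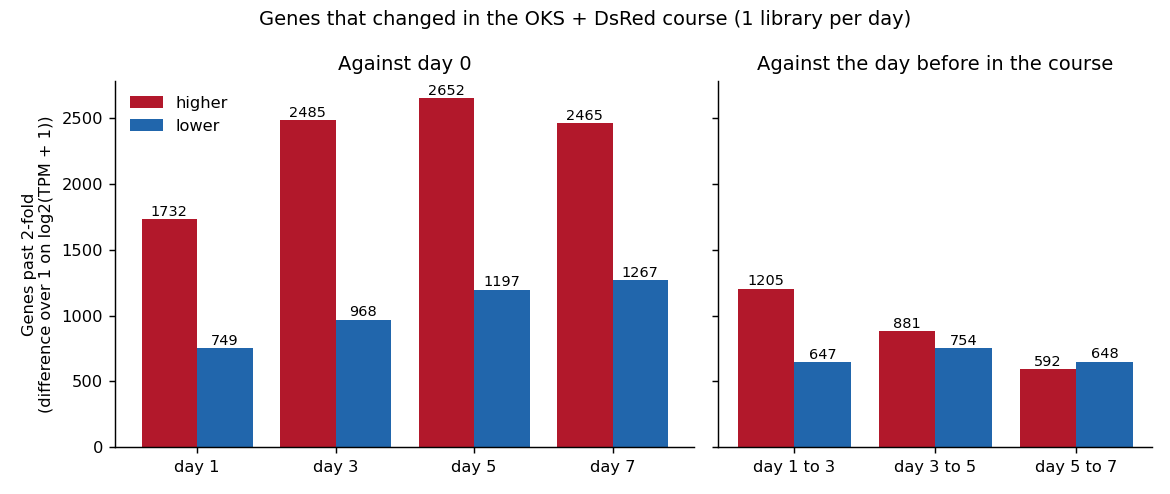
Number of genes past 2-fold (difference over 1 in log2(TPM + 1), vertical axis) in the OKS + DsRed course, higher in red and lower in blue, 1 library per day. Left, each day against day 0; right, each day against the library before it. Against day 0 the number of lower genes grew from 749 to 1267, and between neighbouring days the number of higher genes shrank from 1205 to 592.

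Among genes with at least 100 reads in a library, the largest change at days 3, 5 and 7 was that of Trh, which codes for the precursor of thyrotropin releasing hormone. Trh (chromosome 6, 92242061 to 92244650, minus strand, mm10) was at 1.17, 68.9, 2467, 3251 and 2508 TPM, from 1 read at day 0 to a count that was 2086 times as high at day 7 per library total (95% exact interval 374 to 82400). It rose by 5.01 on the log2 scale from day 0 to 1 and by 5.14 from day 1 to 3, and stayed within 2-fold of the library before at days 5 and 7. Intervals and floors cover counting error only.

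A small set of genes rose steeply within the first day. Avil, which codes for the actin binding protein advillin, was at 5.73, 241, 490, 384 and 276 TPM and led the list at day 1, higher by 5.17 on the log2 scale. Fetub, a secreted fetuin, was at 11.8, 222, 276, 284 and 223 TPM. Tgm3, a transglutaminase of cornifying epithelium, was at 0.76, 31.1, 54.2, 52.0 and 27.5 TPM. All of these were still raised at day 7, and with Trh and Irf7 they made up the 5 largest rises of day 1 among genes with at least 100 reads in a library.

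Contractile genes and targets of SRF and YAP, the factors that couple the actin skeleton to transcription, fell early. Of 22 genes on this list 16 had fallen at day 1 and 19 at days 3, 5 and 7, and none rose on any of these days. The list median was -1.73, -2.84, -3.08 and -2.83 on the log2 scale at days 1, 3, 5 and 7, against 0.16, 0.20, 0.20 and 0.13 for all genes. Of the 19 that had fallen at day 7, 11 had passed the midpoint of their fall at day 1 and the other 8 at day 3, whereas 23.1%, 28.3%, 28% and 20.6% of all falling genes had it on days 1, 3, 5 and 7. The midpoint is the earliest day from which a gene stayed past the mean of its day 0 and day 7 values.

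Acta2, the smooth muscle actin of activated fibroblasts, was at 3227, 304, 40.6, 41.6 and 29.3 TPM. Tagln, transgelin, was at 1205, 95.1, 3.54, 1.9 and 4.02 TPM and was the most decreased gene at days 3, 5 and 7 among named genes with at least 100 reads in a library. Thbs1, thrombospondin 1, was at 790, 82.4, 29.6, 19.9 and 25.8 TPM. Each of these had lost most of its level by day 1 and changed by less than 1 in log2(TPM + 1) after day 3, Tagln on at most 6 reads. Myl9, a regulatory light chain of myosin, went from 463 to 35.9 TPM within a day and ended at 1.93 TPM. Cnn1, calponin 1, had 53 reads at day 0 and none at days 5 and 7, at least 27.3-fold lower at day 7 against a floor of 3 reads. Tpm2, a tropomyosin, fell more evenly, through 360, 152, 39.9, 8.50 and 5.05 TPM, and its trend had a slope of -0.90 per day on the log2 scale (standard error 0.069, with an adjusted p of 0.00391 in edgeR's quasi-likelihood test). The 3 members that had not passed 2-fold at day 7 were Tagln2, Myh9 and Vcl, which differed from day 0 by -0.78, -0.87 and -1.0.

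Matrix proteins and their enzymes followed. Of 29 genes tested, 10, 20, 21 and 23 had fallen at days 1, 3, 5 and 7, with list medians of -0.65, -1.2, -1.57 and -1.86. Bgn, the proteoglycan biglycan, was at 1319, 395, 45.2, 20.3 and 24.0 TPM. Tnc, tenascin C, was at 540, 81.9, 21.1, 5.81 and 10.2 TPM. Lox and Loxl2, lysyl oxidases that crosslink collagen, ended the course at 7.21 and 5.67 TPM from 349 and 165. Fbln5, a protein of elastic fibres, went from 410 to 4.63 TPM. Loxl2 differed from Lox in timing: Lox had fallen to 45.9 TPM at day 1, when Loxl2 was still at 140. Lum, the proteoglycan lumican, was the member that had risen at day 7, from 3.24 to 11.6 TPM on 5 and 27 reads.

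The fibrillar collagens did not fall together. Of 16 collagen genes, 6, 9, 11 and 10 had fallen at days 1, 3, 5 and 7, with medians of -0.45, -1.25, -2.04 and -2.10. Col1a1 (chromosome 11, 94936224 to 94953042, plus strand) and Col1a2 code for the chains of collagen I. Col1a1 was at 1354, 453, 125, 70.2 and 98.3 TPM, whereas Col1a2 was at 1615, 1538, 1255, 374 and 262 TPM. Their midpoints were at day 3 and day 5, and at day 3 Col1a2 was the more abundant of the pair per length. Col12a1 was at 225, 64.0, 10.4, 8.38 and 7.10 TPM. Of basement membrane collagens, Col4a1 was at 225, 330, 464, 338 and 232 TPM and Col4a2 at 201, 234, 369, 223 and 165 TPM, both highest at day 3 and both within 2-fold of day 0 at day 7.

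Transcription factors of mesenchyme fell unevenly. Of 14 tested 4 had fallen at day 1 and 8 at day 7, and the list median was -1.48 at day 7. With at least 50 reads asked for, that median was -0.61. Twist1 was at 204, 135, 73.1, 57.3 and 48.3 TPM. Twist2 was at 78.5, 35.6, 19.5, 13.4 and 2.23 TPM. Osr1 was at 42.9, 16.3, 3.51, 3.74 and 0.53 TPM. These are factors of mesodermal and skeletal development, and each was lowest at day 7. Snai1 and Snai2, repressors of E-cadherin, were low throughout and fell, Snai1 from 21.8 to 8.57 TPM and Snai2 from 14.2 to 2.09 TPM. Zeb1 and Zeb2, repressors of the same kind, did not pass 2-fold at day 7 and were at 12.4 and 19.9 TPM then, against 20.1 and 26.5 at day 0. Tcf4 was the member that had risen at day 7, from 34.9 to 137 TPM.

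The trend test named few of these genes firmly. It called 448 genes rising (3.57%) and 451 falling (3.6%) at an adjusted p under 0.05, and 12 of the 22 contractile genes, 17 of the 29 matrix genes, 8 of the 16 collagens and 4 of the 14 mesenchymal factors were among the falling. Many of these calls were lost when a single library was left out, which also leaves fewer residual degrees of freedom. The part of each was not tested. Without day 5, 2 of the 12 contractile calls, 5 of the 17 matrix calls, none of the 8 collagen calls and 2 of the 4 calls on mesenchymal factors were left. Without day 1 the counts were 7, 7, 0 and 2, and without day 0 they were 6, 12, 6 and 1. Without day 3 they were 8, 14, 7 and 3, and without day 7 they were 11, 14, 7 and 3. Tpm2, Fbln5, Loxl2, Timp2 and Timp3, the latter both inhibitors of matrix metalloproteinases, passed with each library left out in turn. Over all genes 256 of the 448 rising and 227 of the 451 falling calls were kept without day 0, 80 and 100 without day 1, 242 and 241 without day 3, 112 and 69 without day 5, and 207 and 256 without day 7.

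In the cell type markers, 13 of 15 fibroblast genes had fallen at day 7 and their summed level went from 10981 to 3266 TPM. In whole cultures, fewer fibroblasts and less of this RNA per fibroblast cannot be told apart. The fibroblast markers overlap with the collagen and matrix lists and are no separate evidence.

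**Figure D2:**
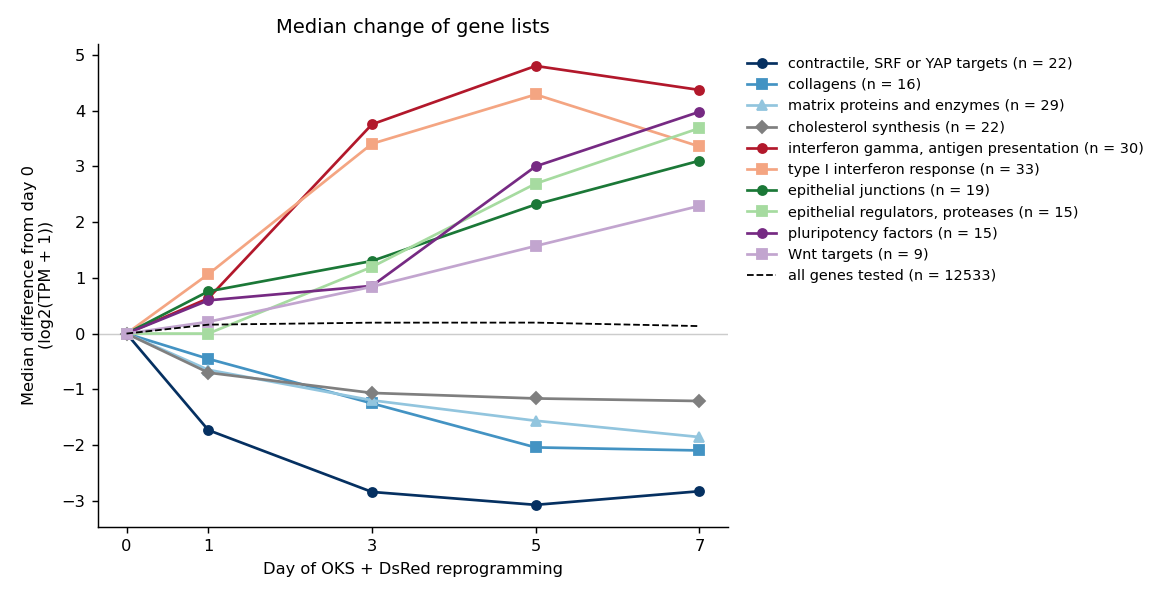
Median difference from day 0 in log2(TPM + 1) (vertical axis) of gene lists by day (horizontal axis), each point the median over the n genes given in the key, 1 library per day, dashed line all 12533 genes tested. The contractile list reached -1.73 at day 1, both interferon lists were above 3.4 at day 3 and highest at day 5, and the pluripotency factors reached 3.0 at day 5 and 3.98 at day 7.

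Interferon response genes rose together in the middle of the course. Of 30 genes of the interferon gamma response and antigen presentation, 13, 27, 30 and 29 had risen at days 1, 3, 5 and 7. Of 33 genes of the type I interferon response 17, 31, 31 and 30 had risen. The medians at days 1, 3, 5 and 7 were 0.63, 3.76, 4.80 and 4.37 for the former list and 1.07, 3.41, 4.29 and 3.36 for the latter. Of the members 9 of the former and 10 of the latter had no read at day 0. These could pass the minimum of 10 reads only by being higher later, so the counts are a description. With these set at the bound that 3 reads give, the day 7 medians were 4.14 and 3.28. The latter leaves out 2 members that had at most 3 reads at day 7. Of the 29 that had risen at day 7 in the former list 24 had passed their midpoint at day 3, and of the 30 in the latter 12 had done so at day 1 and 18 at day 3. Among all rising genes 37.8%, 29.8%, 18.8% and 13.6% had it on days 1, 3, 5 and 7.

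The promoters of genes on the interferon lists were searched for elements of this response. The lists hold known interferon genes, so the shares describe the lists and are no separate evidence. The interferon response element, GAAANNGAAA, was present in the promoter (250 bases before to 50 after the start, RefSeq, GRCm38.p6) of 12 of the 23 genes of the interferon gamma list that have an entry (52.2%) and of 11 of 22 of the type I list (50%), against 1079 of all 27025 genes with an entry (3.99%). The gamma activated site, TTCNNNGAA, was in 7 of 23 (30.4%) and 5 of 22 (22.7%), against 9.55% of all genes. Among genes tested the shares were 3.71% for the interferon response element and 8.11% for the gamma activated site. Among genes that had risen at day 3 they were 6.08% and 9.2%. Both strands were searched, matches may overlap, and a base may belong to matches of both elements. Printed here are 4 promoters whose genes span the response, with the matches in capitals: Isg15, Gbp3 and Tgtp1 with the interferon response element and Irf1 with the gamma activated site. In Isg15 the capitals hold 3 overlapping matches and in Gbp3 they hold 2 on the opposite strand. The window of Tgtp1 also holds 1 gamma activated site, which is left in lower case. Gbp3 and Irf1 each have a further start whose window holds no match and is not shown.
Isg15, chr4:156200769-156201068, minus strand: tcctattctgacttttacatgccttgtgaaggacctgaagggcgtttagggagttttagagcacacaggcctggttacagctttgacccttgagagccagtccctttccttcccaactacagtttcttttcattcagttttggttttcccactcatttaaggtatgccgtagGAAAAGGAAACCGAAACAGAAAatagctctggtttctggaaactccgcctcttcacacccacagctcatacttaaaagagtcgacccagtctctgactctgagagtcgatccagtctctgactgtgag
Gbp3, chr3:142559794-142560093, plus strand: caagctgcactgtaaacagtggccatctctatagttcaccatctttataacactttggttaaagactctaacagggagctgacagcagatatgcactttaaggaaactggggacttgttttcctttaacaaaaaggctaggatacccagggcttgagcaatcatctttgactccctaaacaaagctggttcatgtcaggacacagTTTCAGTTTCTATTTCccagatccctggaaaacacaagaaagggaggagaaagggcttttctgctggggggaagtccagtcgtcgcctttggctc
Tgtp1, chr11:48992197-48992496, minus strand: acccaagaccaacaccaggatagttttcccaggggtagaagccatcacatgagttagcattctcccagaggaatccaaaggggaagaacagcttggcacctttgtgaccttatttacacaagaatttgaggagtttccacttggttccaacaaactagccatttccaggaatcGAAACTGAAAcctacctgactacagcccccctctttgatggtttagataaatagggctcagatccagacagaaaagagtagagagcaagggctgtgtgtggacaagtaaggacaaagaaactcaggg
Irf1, chr11:53769764-53770063, plus strand: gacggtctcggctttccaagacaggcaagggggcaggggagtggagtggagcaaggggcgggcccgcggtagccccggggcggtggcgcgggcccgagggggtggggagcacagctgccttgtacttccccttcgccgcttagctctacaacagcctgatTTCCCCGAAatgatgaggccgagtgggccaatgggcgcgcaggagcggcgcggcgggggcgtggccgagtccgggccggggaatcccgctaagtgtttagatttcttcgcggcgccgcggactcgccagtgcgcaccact
A match is a description of the letters and does not show that a factor was bound.

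Transcription factors of the response had risen at day 1. Irf7, the master factor of type I interferon genes, had no read at day 0 and was then at 19.09, 92.6, 133 and 52.9 TPM, at least 18.3-fold higher at day 7 against a floor of 3 reads. Stat2, which carries the type I interferon signal to the nucleus, was at 14.4, 34.1, 162, 300 and 102 TPM, and Irf9, its partner, was at 15.5, 33.6, 118, 113 and 70.7 TPM. Irf1, whose promoter is printed above, was at 13.7, 30.7, 95.01, 155 and 81.7 TPM. All 4 passed 2-fold in TPM then, Irf1 on 15 and 28 reads, which is less than 2-fold per library total. Each was lower at day 7 than at day 5, with differences from -0.67 (Irf9) to -1.54 (Stat2) on the log2 scale.

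Several sensors of foreign nucleic acid were on the interferon lists or among the named genes. Ddx58, which codes for the RNA sensor RIG-I, was at 10.4, 50.7, 224, 303 and 229 TPM. Zbp1, a sensor of Z-form nucleic acid, was at 6.97, 23.4, 157, 361 and 194 TPM. Aim2, a sensor of cytoplasmic DNA, was higher on each day than on the one before, at 0.77, 8.51, 26.6, 69.2 and 118 TPM. Oas2, an activator of RNase L, had no read at day 0 and was at 6.31, 167, 363 and 155 TPM afterwards, at least 116-fold higher at day 7. Among genes with at least 100 reads in a library, Oas2 was the largest rise at day 5 after Trh.

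Effectors of the response rose as well. Tgtp1 and Tgtp2 are near-identical GTPases that act on vacuoles of parasites, so reads may be split between them in either direction. Tgtp1 was at 1.12, 3.35, 366, 685 and 262 TPM, a rise from 7 reads at day 1 to 696 at day 3. Of the guanylate binding proteins, GTPases of the same defence, Gbp2 was at 1.26, 12.9, 159, 296 and 165 TPM. Gbp3 had no read at day 0 and was at 4.12, 124, 245 and 114 TPM, at least 61.2-fold higher at day 7. Isg15, a ubiquitin-like modifier, was at 4.45, 7.60, 88.7, 218 and 74.1 TPM. On the log2 scale, the largest step of each of these was that from day 1 to 3. Mx1 and Mx2, antiviral genes, stayed at or under 15 reads in every library, and Ifit2 and Trim25 did not pass 2-fold at day 7.

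Antigen presentation genes rose mostly from day 3. Psmb8 and Psmb9 code for catalytic subunits of the immunoproteasome, which cuts peptides for display. Psmb8 was at 0, 7.0, 84.4, 318 and 243 TPM, at least 56.1-fold higher at day 7, and Psmb9 was at 0, 0, 20.1, 139 and 125 TPM, at least 32.3-fold higher. Tap1, the peptide transporter, was at 6.43, 12.3, 131, 291 and 194 TPM. H2-K1, a classical class I heavy chain, was at 116, 124, 430, 2518 and 2273 TPM. B2m, the light chain shared by class I molecules, was at 610, 658, 1942, 5504 and 4455 TPM. The class I genes H2-K1, H2-D1, H2-Q4 and B2m changed from day 5 to 7 by -0.15, -0.16, -0.29 and -0.30 on the log2 scale, and Tap1 by -0.58. The medians of both interferon lists were also lower at day 7 than at day 5, and a difference between the lists was not tested.

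Passing peaks at day 5 included members of this response. A passing peak is a level more than 2-fold above each of the other 4 days, and 101 genes (0.806%) had one at day 1, 61 (0.487%) at day 3 and 92 (0.734%) at day 5. The 5 with the largest margin at day 5 were Apol9a, Tgtp2, Mpeg1, Apol9b and Isg15. Apol9a and Apol9b are near-identical apolipoprotein L genes, and Apol9a was at 3.28, 0, 70.7, 225 and 82.6 TPM. Mpeg1, a pore-forming protein best known from macrophages, was at 0, 0, 18.3, 57.1 and 21.9 TPM. Of 12 macrophage markers only Cd68 reached 10 reads, at 7.95, 52.0, 52.6, 20.1 and 18.5 TPM, and Cx3cr1, Fcgr1, C1qa and C1qc had no read in any of the 5 libraries. The summed level of the 12 was 17.8, 57.6, 60.4, 26.7 and 22.5 TPM. The part of such cells in the results was not tested.

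The 5 interferon genes looked up were at or near 0 reads. Ifnb1, Ifna2, Ifna4 and Ifnk had no read in any library, which allows up to 1.61 to 2.48 CPM, and Ifng had at most 1 read. Of 7 receptors and kinases tested, none passed 2-fold on any of the days 1, 3, 5 and 7. Ifnar1 was at 48.4, 82.2, 53.5, 53.5 and 46.2 TPM and Ifngr1 was at 32.5, 19.97, 18.7, 22.8 and 27.9 TPM.

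By the trend test 11 of the 30 genes of the interferon gamma list rose, among them B2m (slope 0.49 per day with a standard error of 0.078, and an adjusted p of 0.01699 in edgeR's quasi-likelihood test), H2-K1 and Psmb8, and 2 of the 33 type I genes did, Oasl1 and Bst2. Members without a read at day 0, such as Psmb8, could be tested only by being higher later. A gene that peaks at day 5 departs from a line. Without day 1 none of these 13 calls was left, with B2m at an adjusted p of 0.0749, and without day 0 there were 4 of the 11 and none of the 2.

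**Figure D3:**
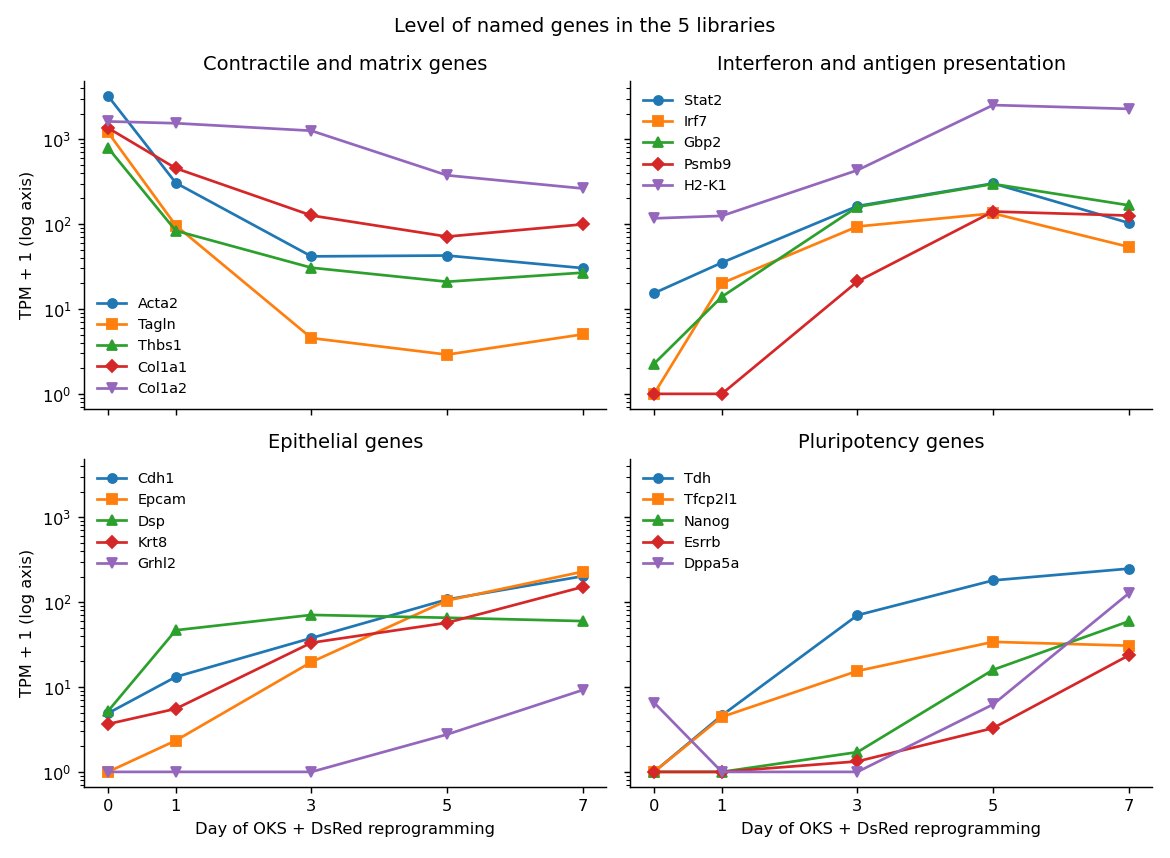
Level of 20 genes (TPM + 1 on a log axis) in the 5 libraries by day, 1 point per library, so 1 on the axis is no read. Contractile genes dropped within a day while Col1a2 was still at 1255 TPM at day 3, Stat2, Irf7 and Gbp2 were highest at day 5, and Nanog, Esrrb and Dppa5a rose between days 5 and 7.

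Of 19 tested genes of epithelial adhesion and junctions 9 had risen at day 1, 12 at day 3 and 14 at days 5 and 7, with medians of 0.76, 1.30, 2.32 and 3.10. With at least 50 reads asked for, the day 5 median was 1.2. With the 6 members that had no read at day 0 set at their bound, the day 7 median was 2.13, and these 6 could be tested only by being higher later. Cdh1 (chromosome 8, 106603351 to 106670246, plus strand) codes for E-cadherin, the adhesion molecule of epithelia, and was at 3.90, 12.2, 36.7, 106 and 201 TPM. Epcam, another adhesion molecule of epithelial and stem cells, was at 0, 1.34, 18.7, 103 and 227 TPM, at least 94.2-fold higher at day 7. Both were higher on each day than on the one before, and both kept an adjusted p under 0.05 in the trend test with each library left out (adjusted p 0.00391 for Cdh1 and 0.005863 for Epcam with all 5, edgeR's quasi-likelihood test). Of the junction list 8 of 19 rose by this test, and 3 of them, Cdh1, Epcam and Dsg2, with every library left out in turn. Epcam, without a read at day 0, could be tested only by being higher later, so its call is a description.

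Junction genes differed in timing. Dsp, desmoplakin, which anchors keratin filaments to desmosomes, was at 4.19, 45.6, 69.6, 64.4 and 58.7 TPM and had passed its midpoint at day 1. Dsc2, a desmosomal cadherin, was at 8.13, 39.6, 20.95, 7.55 and 5.71 TPM and so was raised at days 1 and 3 and back near its start at day 5. Dsg2, another desmosomal cadherin, was at 0.81, 1.49, 3.04, 9.72 and 34.8 TPM, with its midpoint at day 5. The desmosomal genes thus did not move as a group. Of tight junction genes, Cldn4 had 0 to 4 reads up to day 5 and 53 at day 7. F11r, the junctional adhesion molecule A, was at 9.45, 16.7, 30.2, 51.1 and 44.8 TPM.

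The simple keratins differed in timing. Krt8 was at 2.66, 4.54, 32.2, 56.1 and 150 TPM, and its count at day 7 was 54.8 times that of day 0 per library total (95% exact interval 18.5 to 267). Krt18, its partner in simple epithelium, was at 4.62, 1.97, 5.12, 8.72 and 30.7 TPM. Krt8 had passed its midpoint at day 3 and Krt18 at day 7. Krt19 was at 78.2, 18.4, 12.9, 23.1 and 79.3 TPM, lower at days 1, 3 and 5 and at its starting level at day 7.

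Regulators and proteases of epithelium all ended higher among those that could be tested. Of 20 genes 15 reached 10 reads and all 15 had risen at day 7, with list medians of 0, 1.2, 2.69 and 3.69 at days 1, 3, 5 and 7. As 10 of the 15 had no read at day 0, the median with bounds was 2.76, and with a pseudocount of 0.1 the medians at days 5 and 7 were 4.22 and 6.38. A gene near 0 at day 0 could pass the minimum of 10 reads only by being higher later, so the count over these 15 is a description. Ehf, an ETS factor of epithelia, was at 0, 6.15, 31.5, 35.7 and 29.5 TPM and was the earliest. Elf3, a related factor, was at 0, 0, 5.21, 46.7 and 56.9 TPM. Grhl2, a grainyhead factor that activates Cdh1 and Epcam, had no read up to day 3 and was at 1.76 and 8.21 TPM at days 5 and 7, on 4 and 13 reads. No read at day 3 allows up to 2.05 CPM, so the order of its rise and those of Cdh1 and Epcam is not shown. St14, which codes for the protease matriptase, and Spint2, which codes for an inhibitor of it, ended at 68.2 and 212 TPM from 5.23 and 13.5. Ovol1, Ovol2, Prss8 and Mal2 were among those that stayed under 10 reads.

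Pluripotency genes rose late. Of 15 transcription factors of the network tested, 4, 7, 11 and 14 had risen at days 1, 3, 5 and 7, with medians of 0.60, 0.86, 3.0 and 3.98. With a pseudocount of 0.1 the medians at days 3, 5 and 7 were 3.02, 4.57 and 6.96. With the 9 that had no read at day 0 set at their bound, the day 7 median was 3.64. These 9 could pass the minimum of 10 reads only by being higher later, so the counts are a description. The midpoint fell on days 1, 3, 5 and 7 for 2, 2, 7 and 3 of the 14 that had risen at day 7. Klf5 was the member that had not risen, at 28.9, 16.7, 9.08, 8.79 and 15.5 TPM.

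Tfcp2l1 was among the earlier of them. Tfcp2l1, a factor of naive stem cells downstream of LIF, was at 0, 3.44, 14.4, 33.0 and 29.7 TPM, at least 57.3-fold higher at day 7. Sall4 was at 0, 0.53, 1.37, 16.8 and 41.3 TPM, Nr5a2, an orphan receptor that can replace Oct4 in reprogramming, was at 0, 0, 0.81, 16.1 and 42.5 TPM, and Zfp42, also called Rex1, was at 0, 0.78, 4.0, 17.4 and 39.3 TPM. These 3 had their midpoint on day 5. Nanog (chromosome 6, 122707489 to 122714633, plus strand), the core factor of the ground state, was at 0, 0, 0.71, 14.9 and 58.4 TPM, at least 26.3-fold higher at day 7, and its trend had a slope of 1.39 per day on the log2 scale (standard error 0.13, with an adjusted p of 0.005068 in edgeR's quasi-likelihood test). Esrrb, a partner of Nanog, was at 0, 0, 0.33, 2.28 and 22.6 TPM, with 2 reads at day 5 and 84 at day 7. Its trend had an adjusted p of 0.005863 by the same test and of 0.394 without day 7. Utf1 had no read before day 7 and 10 reads then.

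Of the 8 pluripotency factors called rising by the trend test, 5 (Nanog, Sall4, Zfp42, Nr5a2 and Sall1) were called with each library left out. Nanog, Sall4, Zfp42, Nr5a2 and Esrrb had no read at day 0 and could be tested only by being higher later, so their calls are a description. The octamer ATTTGCAT, the site that Oct4 binds, was in 1 of the 11 promoters with an entry (9.09%), against 1.97% of all genes. No match says only that these letters are not in that window.

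Other genes of the pluripotent state spread over the course. Of 26 listed 15 were tested, and 5, 7, 9 and 11 had risen at days 1, 3, 5 and 7, with medians of 0.19, 1.00, 1.66 and 3.20 (3.92 and 5.67 at days 5 and 7 with a pseudocount of 0.1) and with a day 7 median of 1.79 where the 8 members without a read at day 0 stood at their bound. These 8 too could pass the minimum only by being higher later, and the 11 listed genes that stayed low are not in the counts. With no minimum of reads, the medians were 0, 0.30, 0.30 and 2.45 at days 1, 3, 5 and 7. L1td1, an RNA binding protein of stem cells, was at 17.3, 74.5, 203, 263 and 291 TPM. Tdh, threonine dehydrogenase, on which mouse stem cells depend, was at 0, 3.63, 69.1, 179 and 247 TPM, at least 90.1-fold higher at day 7. Alpl, the alkaline phosphatase used as a stain for stem cell colonies, was at 2.95, 1.61, 22.8, 92.5 and 174 TPM. Dppa5a was at 5.55, 0, 0, 5.23 and 126 TPM, on 2 reads at days 0 and 5 and 68 at day 7. Tdgf1, a co-receptor of Nodal, had no read before day 7 and 16 then. Dppa3, Dppa4, Lin28a, Nodal and Tcl1 stayed under 10 reads in every library, and Dnmt3l had none. Markers of late pluripotency were thus partly detected and partly below 10 reads at this depth.

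**Figure D4:**
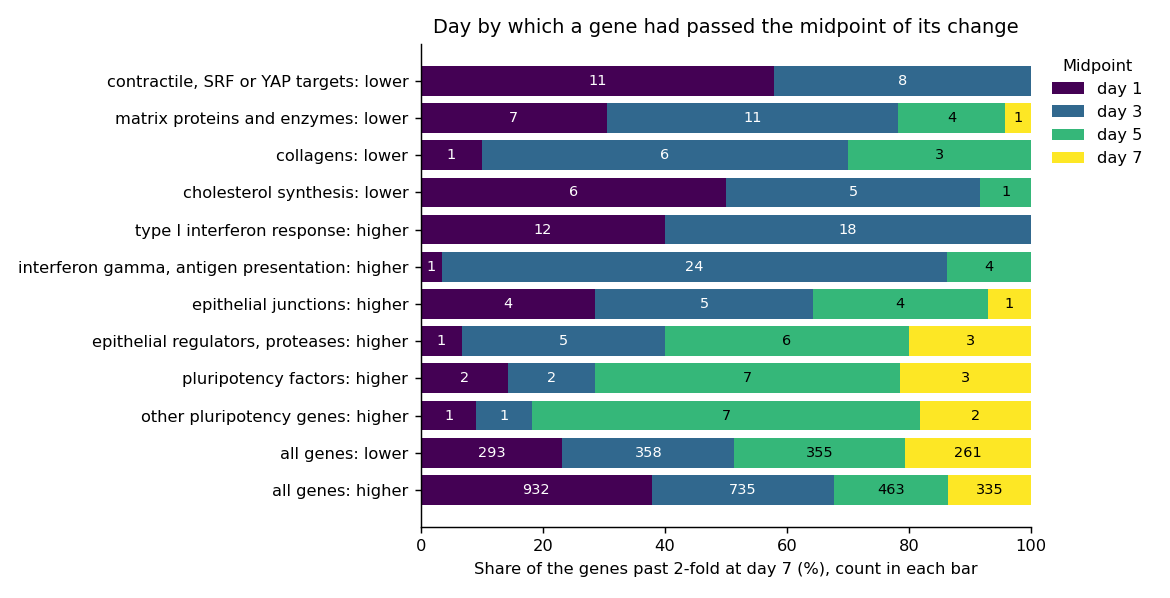
Share of the genes past 2-fold at day 7 (horizontal axis, percent) that had passed the midpoint of their change by day 1, 3, 5 or 7, by gene list, with the count in each bar, 1 library per day. The contractile list and the type I interferon list hold only day 1 and day 3, and in the pluripotency lists day 5 is the most frequent midpoint, with 7 of 14 and 7 of 11 genes.

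Several signalling pathways moved in the same week. In the TGF beta and BMP pathway 12 of 24 genes had fallen at day 7 and 3 had risen, beside 10.1% and 19.7% of all genes, with a median of -0.77. With at least 50 reads asked for, that median turned to 0.13. Inhba, which codes for a subunit of activin, was lowest at day 7 relative to day 0, at 68.5, 18.2, 2.80, 4.97 and 1.40 TPM. Of secreted antagonists, Fst, which codes for follistatin, was at 384, 421, 113, 33.4 and 21.7 TPM. Grem1, gremlin 1, was at 48.5, 55.6, 35.9, 6.43 and 3.77 TPM. Fst and Grem1 were within 2-fold of day 0 at day 1, and Fst passed the trend test with each library left out (adjusted p 0.005068 with all 5, edgeR's quasi-likelihood test). Tgfb1 went from 85.0 to 29.1 TPM and Tgfb2 from 4.24 to 19.8. The receptors Tgfbr1, Tgfbr2, Bmpr1a and Bmpr2 were within 2-fold of day 0 at day 7. Id3, a target of BMP, was at 31.9, 4.34, 7.88, 44.4 and 112 TPM, and so fell before it rose.

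Most targets of canonical Wnt signalling that could be tested rose. Of 16 listed genes 9 were tested, and 8 of these had risen at day 7, with a median of 2.29. Notum, which inactivates Wnt ligands, was at 2.26, 6.14, 53.6, 125 and 184 TPM. Nkd1, an inhibitor within the cell, was at 4.38, 1.33, 22.1, 153 and 189 TPM. Axin2, the usual reporter of the pathway, was at 13.2, 7.42, 24.4, 41.1 and 27.5 TPM. Ccnd1 was the member within 2-fold, at 511 and 414 TPM on days 0 and 7. The other listed genes, Brachyury (T), Cdx1, Cdx2, Lgr5, Sp5, Dkk1 and Wif1, stayed under 10 reads.

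Of 12 ERK feedback genes 5 had risen at day 7 and Phlda1 had fallen, with a median of 0.80, beside 19.7% risen and 10.1% fallen among all genes. Etv5 was at 53.7, 88.1, 145, 164 and 198 TPM, and Spry4 was at 30.8, 101, 132, 92.9 and 88.8 TPM. Of 10 genes of the LIF and STAT3 response 5 had risen at day 5, with a median of 0.96, and 1 at day 7, with a median of 0.73, beside 21.2% and 19.7% of all genes. That member was Socs3, the feedback inhibitor, at 46.0, 65.2, 114, 134 and 98.7 TPM.

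Metabolic genes changed on different schedules. Cholesterol synthesis fell early: of 22 genes 4 had fallen at day 1, 13 at day 3 and 12 at days 5 and 7, with medians of -0.70, -1.07, -1.16 and -1.21. Idi1, an isomerase of the pathway, was at 295, 105, 72.1, 88.4 and 83.4 TPM. With day 1 as the reference the day 7 median was -0.44, so most of the fall lay in the step from day 0.

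Transcripts of glucose transporters rose late. Slc2a1, the main glucose transporter of proliferating cells, was at 49.9, 38.4, 47.5, 197 and 536 TPM, and Slc2a3 was at 28.8, 30.9, 29.8, 46.1 and 182 TPM. Slc16a3, a lactate exporter, was at 18.2, 8.59, 7.29, 51.0 and 101 TPM. Of 20 genes of glycolysis and lactate 9 had risen at day 7, while Gapdh and Pgk1 stood at 6170 and 488 TPM, against 6015 and 492 at day 0. Some genes that respond to low oxygen rose late too: Egln3, a prolyl hydroxylase, was at 14.9, 2.54, 8.96, 31.4 and 126 TPM, and Ndufa4l2 had 24 and 115 reads at days 5 and 7 after 0 to 2 before. Of 11 such genes 6 had risen and Adm had fallen at day 7, with a median of 1.11, which was 0.98 with the median of all genes set to 0.

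Regulators of DNA methylation rose in part. Of 9 tested 6 had risen at day 7, with a median of 1.41, which was 0.69 with day 1 as the reference. Tet2, which oxidises methylcytosine, was at 7.19, 56.5, 95.3, 107 and 99.3 TPM and had passed its midpoint at day 1. Tet1 had 12, 11, 3, 16 and 78 reads. Apobec1, a cytidine deaminase, was at 9.75, 14.1, 27.0, 78.5 and 91.2 TPM. Dnmt1, which maintains methylation, was within 2-fold, at 109, 110, 139, 175 and 113 TPM. Of 27 histone modifiers and remodellers 8 had risen and none had fallen at day 7, with a median of 0.61, beside 19.7% risen and 10.1% fallen among all genes.

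Imprinted genes, expressed from 1 parental copy, went in both directions. Of 20 tested 9 had fallen and 3 had risen at day 7, beside 10.1% fallen and 19.7% risen among all genes. Igf2, the fetal growth factor, fell in every interval, through 1172, 496, 79.5, 33.5 and 11.4 TPM, with a slope of -0.94 per day (standard error 0.068, with an adjusted p of 0.00391 in edgeR's quasi-likelihood test). H19, its neighbour, was at 461, 80.5, 77.7, 100 and 61.8 TPM, and so fell within the earliest interval alone. Peg10, a gene of retrotransposon origin, was at 11.2, 52.6, 32.7, 113 and 229 TPM. Meg3 and Rian, the noncoding RNAs of the Dlk1 domain, were within 2-fold at day 7, at 577 and 314 TPM against 441 and 230 at day 0, while Dlk1 fell from 110 to 7.42.

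Of 30 genes of G2/M and mitosis, 2, 1, 6 and 0 had risen at days 1, 3, 5 and 7, beside 13.8%, 19.8%, 21.2% and 19.7% of all genes, with medians of 0.46, 0.11, 0.48 and 0.13 against 0.16, 0.20, 0.20 and 0.13 for all genes. Of 30 genes of S phase and replication none had risen, and 1, 3, 0 and 3 had fallen on these days, with a day 7 median of -0.07. Of 22 p53 targets and CDK inhibitors 6 had risen and 3 had fallen at day 7, with a median of -0.41, beside 19.7% and 10.1% of all genes. None of 28 nuclear genes of the respiratory chain passed 2-fold at day 7.

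Transcripts of the mitochondrial genome took a growing share of the libraries. Of the reads assigned to genes 2.88%, 3.65%, 3.95%, 4.35% and 5.07% came from it at days 0, 1, 3, 5 and 7. Of its 13 protein genes 4 had risen at day 7 and none had fallen, beside 19.7% and 10.1% of all genes. The list medians were 0.52, 0.56, 0.72 and 0.82 from day 1 on, against 0.16, 0.20, 0.20 and 0.13 for all genes. Their summed level went from 58329 to 103142 TPM. Among them mt-Nd6, a subunit of complex I, was at 1385, 2662, 2510, 3168 and 4069 TPM. The part of this shift in the other results was not tested.

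Passing peaks in the early course marked genes that came and went. Of the 5 leading at day 1, Lpl, lipoprotein lipase, was at 84.1, 306, 107, 46.9 and 19.4 TPM and Rgs5, a marker of pericytes, was at 4.22, 35.04, 11.6, 1.81 and 0.51 TPM. Eif2ak4, the amino acid sensor GCN2, was at 20.1, 54.4, 20.1, 19.2 and 14.5 TPM. At day 3 the rule gave 4 genes, Gad2, Penk, Msc and Prkcb. Msc, the factor musculin, was at 12.8, 160, 357, 156 and 36.7 TPM. Prkcb, a protein kinase C, was at 8.56, 87.8, 194, 72.9 and 32.8 TPM, on the same schedule. Both had risen already at day 1 and were still above day 0 at day 7.

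Passing troughs numbered 116 (0.926%) at day 1, 70 (0.559%) at day 3 and 84 (0.67%) at day 5. At day 1 they were led by Lgals7, Nat8f7, Apol9a, Dpp4 and Ak4. Lgals7, Nat8f7 and Apol9a had only 2, 7 and 3 reads at day 0 and none at day 1, so their dips are uncertain. Dpp4, a surface peptidase, was at 13.6, 3.30, 16.1, 52.7 and 125 TPM, and Ak4, a mitochondrial adenylate kinase, was at 29.1, 8.61, 45.2, 101 and 234 TPM. Ak4 had 27 reads at day 0 and 19 at day 1, so its dip was smaller per library total than in TPM. At day 3 Cd74, the invariant chain of class II molecules, had 0 reads, between 1 at day 1 and 60 at day 5, and it was at 101 TPM at day 7. At day 5 Srp54b, which has near-identical copies, led the list and is uncertain.

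Genes that moved the same way in all 4 intervals numbered 516 upward and 367 downward, of which 389 and 241 were past 2-fold at day 7. The rises were led by Platr15, Tdh, Epcam, Gpx2 and Dio3. Platr15, a noncoding RNA named for its link to pluripotency, was at 0, 1.87, 42.6, 209 and 310 TPM, at least 45.9-fold higher at day 7. Gpx2, a glutathione peroxidase of epithelium, was at 0, 1.31, 10.9, 56.6 and 134 TPM. The falls were led by Igf2, Tpm2, Grb14, Lox and Ccn4. Ccn4, a matricellular protein, was at 36.9, 17.8, 5.99, 1.76 and 0.20 TPM and had the steepest called fall among the leaders of the trend test, with a slope of -1.0 per day (with an adjusted p of 0.003536 in edgeR's quasi-likelihood test). The smallest adjusted p of a rise was that of Cmah, a hydroxylase of sialic acid, at 0.83, 1.84, 4.84, 22.4 and 62.3 TPM (slope 0.88 per day, standard error 0.047, adjusted p 0.002572, same test). Among named genes with at least 100 reads in a library, the 10 rising and 10 falling with the smallest adjusted p were refitted. All 20 kept an adjusted p under 0.05 in this test with each library left out in turn.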

How the data were processed

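Messenger RNA of 1 culture per day was sequenced at days 0, 1, 3, 5 and 7 of the OKS + DsRed course. The authors ran Bowtie2 within RSEM against transcripts of GENCODE M13 (mm10, with no tool versions in their processing notes) and deposited for each library the expected counts of RSEM, which are not normalized, and TPM, which are scaled by transcript length and library total. The labels name a VAHTS V3 kit for the libraries and the methods another kit. How strand was handled in the counting is not given in the sources used here, so reads of overlapping genes cannot be told apart. The FPKM columns were not used.

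Changes were taken as differences in log2(TPM + 1) (Python 3.11.15, numpy 2.4.6, pandas 2.3.3) over genes with at least 10 expected counts in 1 of the 5 libraries, and a difference over 1 was counted. A trend over the days was tested on rounded expected counts with edgeR 4.0.16 in R 4.3.3 (glmQLFit and glmQLFTest, TMM, slope on day, 3 residual degrees of freedom, Benjamini-Hochberg adjusted p under 0.05 over all genes tested). The script was tested on simulated data. With 1 library per day, p-values measure the scatter of these 5 libraries about a line and not that between infections. Intervals of count ratios are exact, at 95%.

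Named genes were members of 47 gene lists and, among genes with at least 100 expected counts in a library and without a Gm, Rik or -ps name, the 5 largest differences per day and direction, the 5 widest passing peaks and troughs per day, the 10 largest steady rises and falls, and the 10 smallest adjusted p per direction. The course, the lists and the rules were chosen with earlier results of these data known.

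Other settings tried were a minimum of 50 counts or none, a pseudocount of 0.1, counts per library total (CPM) scaled by TMM, centring on the median gene, an exact interval that excludes 1, and for the trend DESeq2 1.42.0, its size factors in edgeR, no minimum, the place in the course in place of the day, and each library left out in turn. Day 1 as the reference was chosen after seeing the data. Promoters are RefSeq windows of GRCm38.p6 matched by symbol, and names and positions of genes are from GENCODE M21. Some genes of the lists are not reported here.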

Additional observations from a re-analysis of the deposited data

How the results depend on the processing

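The course has 1 library per day and shallow libraries, so single-day differences of genes under 50 reads and all peaks and troughs are the least certain values. No paired analysis was possible because each day is 1 library and the labels carry no replicate numbers. With at least 50 counts, fewer genes were tested: 962 had risen and 281 fallen at day 1, 1378 and 451 at day 3, 1452 and 608 at day 5, and 1322 and 670 at day 7. Then 523 rose and 260 fell from day 1 to 3, 330 and 294 from day 3 to 5, and 151 and 225 from day 5 to 7, peaks at days 1, 3 and 5 numbered 31, 17 and 31, and troughs 33, 12 and 24. Midpoints at days 1, 3, 5 and 7 were those of 566, 443, 220 and 93 rising and 131, 237, 213 and 89 falling genes. The day 7 medians of mesenchymal factors and ERK feedback genes were -0.61 and 1.13, and the day 5 median of neural and glial markers turned to -0.25. With no minimum, more genes were tested: 3029 and 1780, 4049 and 1987, 4307 and 2271, and 4294 and 2239 had risen and fallen at days 1, 3, 5 and 7. Then 2529 rose and 1743 fell, 2188 and 2014, and 1958 and 1789 in the 3 later intervals, peaks numbered 586, 575 and 633 and troughs 197, 138 and 161, rising midpoints at days 5 and 7 numbered 849 and 1382, and falling ones at days 1 and 7 numbered 743 and 493. The germline median was 0.74, and the day 7 medians of endothelial and skeletal muscle markers turned to -0.36 and 0.0498. With a pseudocount of 0.1, troughs numbered 205, 126 and 146 and the acute phase median was 1.012. With an interval that excludes 1, 481 fell from day 3 to 5, and 359 rose and 406 fell from day 5 to 7. Centring on the median gene gave the hypoxia list 0.98. CPM with TMM moved no count by over 1.5 times. With day 1 as the reference, chosen after seeing the data, 1205 and 1639 genes had risen at days 3 and 5. The day 7 medians were then -0.98 for mesenchymal factors, 1.48 for acute phase genes, -0.44 for cholesterol synthesis, 0.88 for hypoxia and 0.69 for DNA methylation, and that of macrophage markers, resting on Cd68, turned to -1.44. For the trend, DESeq2 called 726 rising and 618 falling genes, and refits without 1 library called 81 to 416 rising and 69 to 392 falling genes, of which 80 to 256 and 69 to 256 were among the calls with all 5. The causes were not tested.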

Other observations

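Of 9 genes of insulin-like growth factor binding 2 had risen and 4 had fallen at day 7, beside 19.7% and 10.1% of all genes. Igfbp7 was at 497, 136, 3.90, 5.54 and 5.85 TPM at days 0, 1, 3, 5 and 7, and so was lost between days 1 and 3. Igfbp5 was at 8.60, 4.22, 15.9, 45.3 and 97.3 TPM, and Igfbp2 was at 31.1, 9.54, 6.6, 77.3 and 296 TPM. These carriers of the growth factors thus ended on opposite sides of day 0.

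The metallothioneins Mt1 and Mt2, small proteins that bind metal ions, rose, Mt2 through 213, 147, 389, 818 and 1540 TPM and Mt1 to 1363 from 399. They and Slc7a11, the cystine transporter, were the 3 of 13 genes of the NRF2 and metal response that had risen at day 7, and Srxn1 had fallen, from 218 to 57.8 TPM. Over all genes 19.7% had risen and 10.1% had fallen at day 7, and the shares of this list and of the next are near these. Of 14 genes of one carbon, serine and polyamine metabolism 2 had risen and 2 had fallen: Phgdh, which begins serine synthesis, was at 196, 85.1, 26.2, 36.7 and 29.2 TPM, and Sms, spermine synthase, was at 30.0, 56.8, 115, 129 and 141 TPM. Of 10 genes of fatty acid synthesis 3 had fallen and none had risen. Of 16 tested genes of the unfolded protein and integrated stress response 1 had risen and 3 had fallen. Of 15 tested immediate early genes 4 had fallen, among them Fosl1, a partner of Jun, at 151, 65.8, 28.3, 15.1 and 20 TPM.

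Polycomb and related factors within the histone modifiers did not move alike. Jarid2, a cofactor of PRC2, was at 6.03, 13.4, 37.8, 46.6 and 79.1 TPM, while Ezh2, the enzyme of that complex, was within 2-fold of day 0 on each day, at 65.1, 60.1, 66.2, 76.9 and 68.7 TPM.

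Among markers of other cell types most genes stayed under 10 reads. In red cells only Hbb-y, an embryonic globin, reached them, at 181, 258, 457, 199 and 66.6 TPM. Of 2 tested genes of skeletal muscle both had fallen at day 7. Of 6 tested neural and glial genes 5 had risen, 3 of which had no read at day 0 and so could be tested only by being higher later, and Stmn2 had fallen, from 339 to 124 TPM. Of trophectoderm genes Tfap2c and Krt7 had risen, to 30 and 18 reads. None of the 8 listed genes of the embryo's earliest cleavage stage that the files name reached 10 reads.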
